A study of Mus musculus with 6 samples.

Results

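The gasdermins Gsdmc, Gsdmc2, Gsdmc3, Gsdmc4 and Gsdmd were followed in mouse jejunal intestinal epithelial cells (IEC) with and without Hdac1 and Hdac2, which encode class I histone deacetylases. The members were chosen by gene symbol, 5 names in all. Of these, 4 had a row among the 19616 genes of the count table, and all 4 were among the 15618 genes with enough reads to be tested. Gsdmc itself had no row under that symbol and was not analysed here. The control mice, 3 in number and named C1, C3 and C3-3, were wild type. The 3 deleted mice, named H1, H5 and H9, carried villin-Cre and were Hdac1-/- and Hdac2-/-, the villin promoter directing Cre to the intestinal epithelium. All were 3 months old, the lines were kept on a mixed background of C57BL/6J, 129SV and CD1, and IEC were enriched from the jejunum with EDTA before polyadenylated RNA was sequenced.

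Gasdermins are cytosolic proteins held inactive by their own carboxy-terminal part. When a protease cuts the linker, the amino-terminal part inserts into membranes and assembles pores, through which cytokines leave the cell and which can end in the lytic death called pyroptosis. Gsdmd is the substrate of the inflammatory caspases Casp1 and Casp4 (the latter also called caspase-11 in mice), and in the gut it has been linked to cytokine release and mucus secretion. The mouse Gsdmc paralogs form a tandem cluster and are known in the small intestine for their induction during type 2 immune responses to worms.

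The paralogs lie side by side on the minus strand of chromosome 15 in GRCm38, Gsdmc2 at chr15:63824346-63845177, Gsdmc3 at chr15:63857724-63878558 and Gsdmc4 at chr15:63891264-63912297. Gsdmd lies on the plus strand of the same chromosome at chr15:75862327-75867408. Coding sequences taken from the GENCODE M21 transcripts had 1443 bases for each of Gsdmc2, Gsdmc3 and Gsdmc4 and 1464 bases for Gsdmd. Gsdmc2 and Gsdmc3 were identical at 97.1% of aligned coding bases, Gsdmc2 and Gsdmc4 at 93.7%, and Gsdmc3 and Gsdmc4 at 93.8%. Each of the 3 paralogs was identical to Gsdmd at between 53.6% and 55.0% of aligned bases. The sequences below show how alike the paralogs are, which decides how well reads can be told apart. Their first 60 coding bases held no difference:
Gsdmc2, Gsdmc3 and Gsdmc4: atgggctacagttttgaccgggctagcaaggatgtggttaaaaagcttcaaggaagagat
In the 60-base stretch where they differed most, capitals mark the 16 positions not shared by all 3. It begins at coding base 803 in Gsdmc2 and Gsdmc3 and at coding base 809 in Gsdmc4:
Gsdmc2: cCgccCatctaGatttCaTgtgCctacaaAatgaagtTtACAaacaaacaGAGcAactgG
Gsdmc3: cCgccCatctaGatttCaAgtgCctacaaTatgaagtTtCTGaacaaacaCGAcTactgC
Gsdmc4: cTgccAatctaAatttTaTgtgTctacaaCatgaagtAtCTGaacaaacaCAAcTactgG
The longest run of coding bases identical in the 3 paralogs was 171 bases. All 100-base windows of the coding sequence were searched in transcripts of the other members and of the related Gsdmcl1, Gsdmcl2 and Gsdmcl-ps. Of these windows, 28.0% in Gsdmc2, 31.1% in Gsdmc3 and 27.6% in Gsdmc4 also occurred in another of those genes, against 0.0% in Gsdmd. How the study assigned reads from such windows is not given in the sources used here, so the split of counts among the paralogs is uncertain.

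The libraries held between 58017009 and 65902344 counts in controls and between 36111035 and 65230566 in deleted mice, the lowest being H5, so that 3 counts correspond to 0.0405 to 0.079 CPM, counts per 1000000 counts of the TMM-scaled library. Pearson correlations of log2 CPM between mice of the same group ran from 0.974 to 0.983. Hdac1 RNA was at 39.1, 34.5 and 48.9 CPM in C1, C3 and C3-3 and at 3.97, 2.53 and 4.81 CPM in H1, H5 and H9 (log2 fold change -3.43 ± 0.26 SE, edgeR quasi-likelihood test with Benjamini-Hochberg adjusted p = 2.91e-05). Hdac2 counts did not separate the groups (log2 fold change -0.18 ± 0.17 SE, adjusted p = 0.438 in the edgeR test). Which exons those counts came from is not known, so they do not check the Hdac2 deletion. A gene was called when its adjusted p did not exceed 0.05 and the groups differed at least 2-fold. By this rule 12.4% of tested genes rose and 12.7% fell in deleted mice (1944 and 1990 genes, or 2463 and 1538 when scaled by library totals alone).

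None of the 4 gasdermins was called (0 of 4). Gsdmd was lower in all 3 deleted mice than in any control and passed the p limit, but the difference was under 2-fold. The 3 Gsdmc paralogs overlapped between the groups, and none of them passed the test. In these RNA values from bulk IEC, fewer cells of a type and less RNA per cell cannot be told apart.

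Gsdmd RNA stood at 313, 541 and 434 CPM in controls C1, C3 and C3-3. In deleted mice H1, H5 and H9 it stood at 266, 235 and 273 CPM. The deleted mice lay close together and all below the lowest control, C1, whereas the controls spread over a 1.73-fold range. Mean Gsdmd was 430 ± 114 CPM in controls and 258 ± 20.1 CPM in deleted mice (SD, n = 3 each), a ratio of 0.601. The log2 fold change was -0.74 ± 0.20 SE with a 95% interval from -1.2 to -0.27 (edgeR quasi-likelihood test, Benjamini-Hochberg adjusted p = 0.0184). Over all tested genes, 20.3% were lower and passed the p limit of 0.05, and 26.6% were lower with no overlap between the groups. Gsdmd had both properties. The adjusted p moved past 0.05 when C3 (log2 fold change -0.53, adjusted p = 0.0533), C3-3 (-0.72, adjusted p = 0.0505) or H5 (-0.67, adjusted p = 0.0740) was left out of the edgeR fit.

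The order of Gsdmd among controls was C1 below C3-3 below C3. Summed T cell, enterocyte, villus tip enterocyte, tuft cell and mast cell markers had the same order. Apoa4, in both enterocyte lists and their largest term in controls, was at 32200, 44700 and 38400 CPM in C1, C3 and C3-3. In deleted mice H5 was lowest in Gsdmd and highest in summed T cell markers. H5 led that sum through Gzma and Gzmb, whereas H9 was highest in Cd3d, Cd3e, Cd3g, Cd8a and Cd247. The 7 markers Cd3d, Cd3e, Cd3g, Cd8a, Cd247, Gzma and Gzmb summed to 112, 429 and 368 CPM in C1, C3 and C3-3 and to between 50.4 and 136 CPM in deleted mice, with 2 of the 7 called lower and none at 0. Summed enterocyte markers stood at 82100, 95400 and 91700 CPM in C1, C3 and C3-3 and ran from 31200 to 42700 CPM in deleted mice, with 4 of 9 called lower and 1 called higher, while general epithelial markers ran from 12900 to 14800 and from 10300 to 12700 CPM with 1 of 9 called higher. All 7 Paneth cell markers and all 3 smooth muscle markers were called lower, the latter summing to between 1.71 and 51.1 CPM in controls and between 0.179 and 0.237 CPM in deleted mice. Of 7 macrophage markers, 3 were called higher and none lower. The macrophage sums ran from 11.2 to 15.6 CPM in controls and from 21.9 to 44.5 CPM in deleted mice. The part of these markers in the Gsdmd difference was not tested.

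Gsdmc4 showed the widest spread of the 4 members. It was at 0.513, 1.57 and 3.63 CPM in controls C1, C3 and C3-3. In deleted mice it was at 10.5 CPM in H1, 0.211 CPM in H5 and 9.74 CPM in H9, from 776, 8 and 599 counts. H1 and H9 were above every control, and H5 was below every control, so that the deleted mice spanned a 49.7-fold range. The means were 1.90 ± 1.59 CPM in controls and 6.81 ± 5.72 CPM in deleted mice (SD, n = 3 each). The log2 fold change of 1.85 ± 1.31 SE had a 95% interval from -1.4 to 5.11 and did not pass the edgeR test (adjusted p = 0.311). Without H5 it was 2.42 (adjusted p = 0.0435 in the same edgeR test), and without any other mouse the adjusted p stayed above 0.05.

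**Figure D1:**
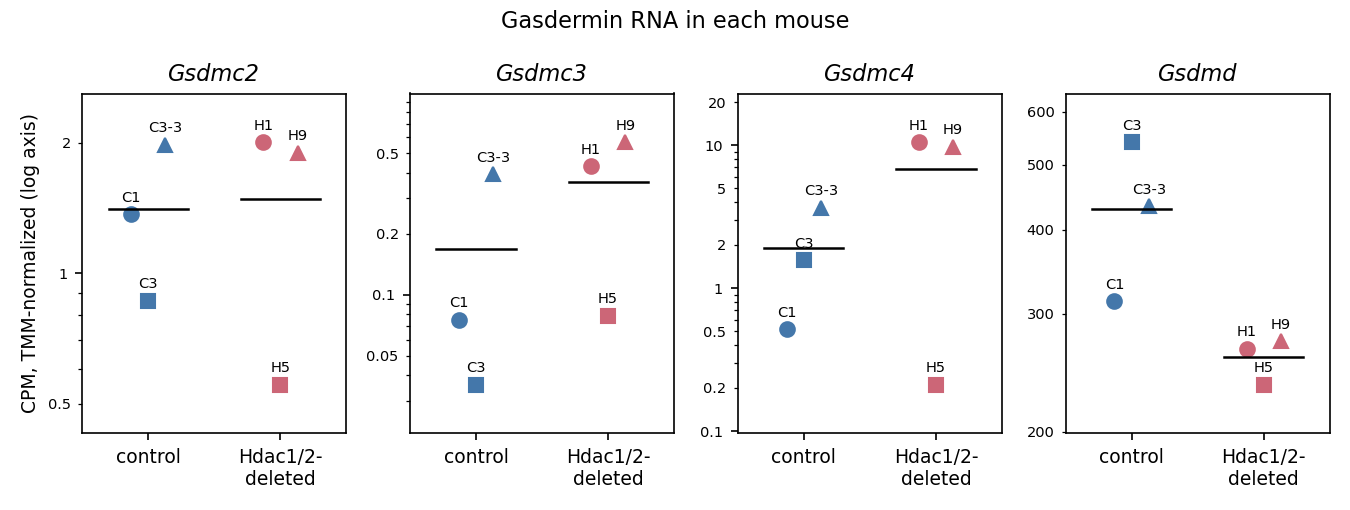
TMM-normalized CPM of Gsdmc2, Gsdmc3, Gsdmc4 and Gsdmd (y axes logarithmic, each panel with its own range) in 3 control and 3 Hdac1/2-deleted mice, with 1 point per mouse and a line at the group mean. H5 lies at 0.211 CPM for Gsdmc4, far below H1 and H9 at 10.5 and 9.74, whereas for Gsdmd all deleted mice lie between 235 and 273, below every control.

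Gsdmc2 was at 1.37, 0.864 and 1.98 CPM in C1, C3 and C3-3, and at 2.01, 0.553 and 1.90 CPM in H1, H5 and H9. H5 was again the lowest of all 6 mice, and H1, H9 and C3-3 were nearly level. Group means of 1.40 ± 0.556 and 1.49 ± 0.812 CPM (SD, n = 3 each) gave a log2 fold change of 0.10 ± 0.51 SE, with a 95% interval from -1.05 to 1.25 (edgeR adjusted p = 0.893). The interval leaves room for a difference of just over 2-fold in either direction.

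Gsdmc3 was the least abundant paralog. It was at 0.0755, 0.036 and 0.395 CPM in C1, C3 and C3-3, from 5, 2 and 21 counts, and at 0.432, 0.079 and 0.569 CPM in H1, H5 and H9, from 32, 3 and 35 counts. H1 and H9 were just above C3-3, and H5 lay at the limit of 3 counts and between C1 and C3-3. The log2 fold change was 1.15 ± 0.89 SE with a 95% interval from -0.89 to 3.19 (edgeR adjusted p = 0.336), and without C3-3 it was 2.67 (adjusted p = 0.0516 in edgeR).

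Because closely related paralogs can trade reads, the counts of Gsdmc2, Gsdmc3 and Gsdmc4 were also added up and tested as 1 gene. The sum was 1.96, 2.47 and 6.0 CPM in C1, C3 and C3-3, and 12.9, 0.842 and 12.2 CPM in H1, H5 and H9. The sum separated the mice in the same way as Gsdmc4 did, with H1 and H9 above and H5 below every control. Its log2 fold change was 1.32 ± 0.95 SE with a 95% interval from -0.99 to 3.63 (edgeR adjusted p = 0.312), and 1.86 without H5 (adjusted p = 0.0229 in edgeR). The sum does not depend on how counted reads were split among the 3 paralogs, and it too was lowest in H5. It would still lack any reads that were dropped for matching several genes or assigned to related genes outside the 3. H5 was the highest of the deleted mice in summed goblet cell markers (13700 CPM, against 6570 in H1 and 9480 in H9) and in summed T cell markers (136 CPM, against 50.4 and 98.5). It led the T cell sum through Gzma and Gzmb, and H9 was highest in the other T cell markers. H5 was the lowest in summed enterocyte markers (31200 CPM, against 38900 in H1 and 42700 in H9) and in villus tip enterocyte markers (4240 CPM, against 10600 and 6440). Most of the villus tip sum was Apoa4, at 3580 CPM in H5, 9700 in H1 and 5570 in H9. The part of these markers in the spread of the paralogs was not tested.

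The balance of the paralogs differed from mouse to mouse. Gsdmc4 made up 26.2%, 63.5% and 60.5% of the summed counts in C1, C3 and C3-3, and 81.1%, 25.0% and 79.8% in H1, H5 and H9. Gsdmc2 made up 70.0%, 35.0% and 32.9% in the controls and 15.6%, 65.6% and 15.6% in the deleted mice. C1 and H5, the mice lowest in Gsdmc4, thus had Gsdmc2 as their leading paralog, and in the other 4 mice Gsdmc4 led. Gsdmc3 never exceeded 9.38% of the sum. The group means of the Gsdmc4 share, 50.1% ± 20.8 in controls and 61.9% ± 32.0 in deleted mice (SD, n = 3 each), gave no p under the threshold in an exact two-sided permutation test (p = 0.6, Benjamini-Hochberg adjusted p = 0.6 over the 3 paralogs), for which 3 mice against 3 can give no p below 0.10.

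**Figure D2:**
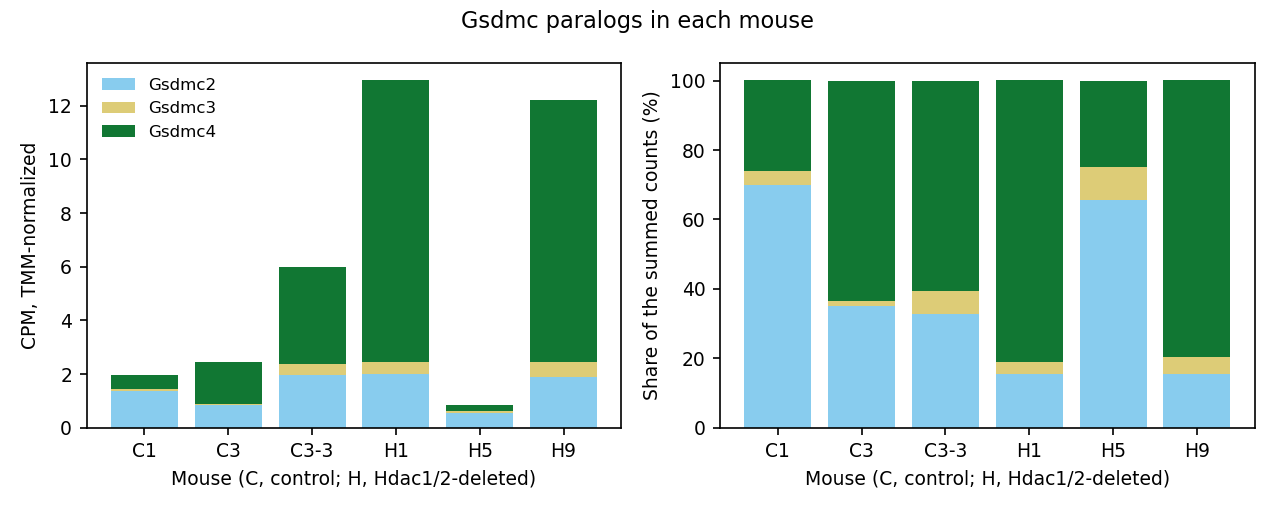
Stacked bars of TMM-normalized CPM (left) and of the share of the summed counts in percent (right) for Gsdmc2, Gsdmc3 and Gsdmc4 in each of the 6 mice. Gsdmc4 fills 81.1% and 79.8% of the tall bars of H1 and H9 but 25.0% of the short bar of H5 and 26.2% of that of C1.

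The gap of H5 was set beside all tested genes. In H5, Gsdmc4 lay 5.32 log2 units below the lower of H1 and H9 (log2 CPM with a prior count of 2). This was the largest such gap among the 15618 tested genes, the next being 4.01, and the median gap was -0.14. Gsdmc3 (2.04) ranked 45 and Gsdmc2 (1.72) ranked 84, whereas Gsdmd (0.18) ranked 3596. This measure was chosen after the values had been seen, and gaps over 5.32 occurred in other mice for other genes. By this measure 11 genes were at least 8-fold lower in H5, a number between the 6 and 7 of H1 and H9 and the 18 to 29 of the controls, and among them were the immunoglobulin segments Igkv4-72, Ighv1-80 and Igkv4-63.

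**Figure D3:**
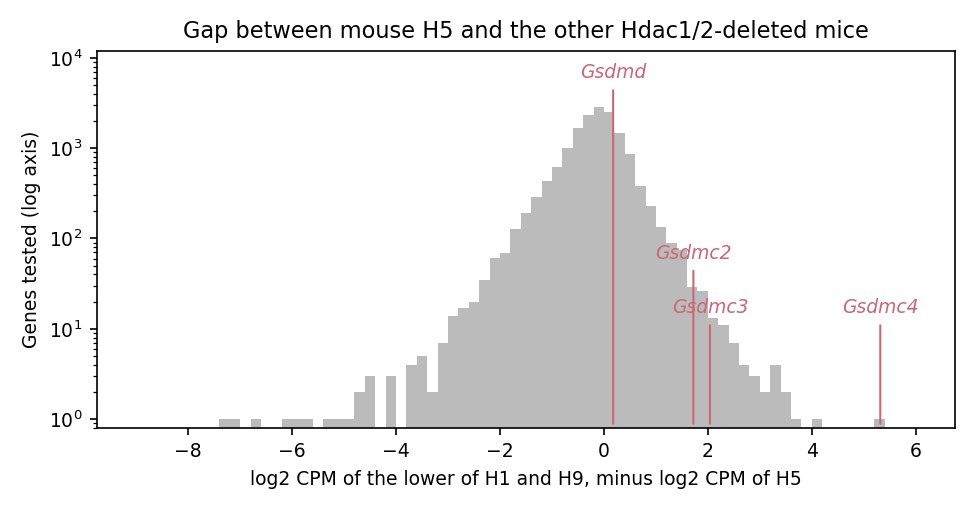
Histogram over the 15618 tested genes of the log2 CPM of the lower of H1 and H9 minus that of H5 (x axis; number of genes on a logarithmic y axis). Gsdmc4 at 5.32 is the rightmost gene, Gsdmc3 and Gsdmc2 lie at 2.04 and 1.72, and Gsdmd at 0.18 lies within the bulk.

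Across the 6 mice, log2 CPM of the 3 paralogs moved together, with Pearson's r of 0.814 for Gsdmc2 and Gsdmc3, 0.834 for Gsdmc2 and Gsdmc4, and 0.82 for Gsdmc3 and Gsdmc4. Their r with Gsdmd was 0.0352, -0.319 and 0.0714 in the same order. These are descriptions of 6 libraries, in which the paralogs may share reads.

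Compared per kilobase of transcript, Gsdmd was by far the most abundant of the measured members, at a mean level of 240 CPM per kilobase in controls and 144 in deleted mice. Gsdmc4 followed at 0.913 and 3.26, then Gsdmc2 at 0.65 and 0.689, and Gsdmc3 at 0.0775 and 0.165 CPM per kilobase. Gsdmc4 and Gsdmc2 did not hold a fixed order, as their CPM crossed in C1 and H5.

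Of the other gasdermins, 4 had a row and 3 were tested. Gsdma2 was at 0.408, 0.252 and 0.207 CPM in C1, C3 and C3-3, from 27, 14 and 11 counts, and had no count in any deleted mouse. It was the only other gasdermin called (edgeR adjusted p = 0.00177) and was at least 17.2-fold lower in deleted mice, counting 3 counts over the group as the limit. Gsdma, its paralog, was at 1.57, 1.93 and 1.67 CPM in controls and at 0.931, 1.32 and 0.992 CPM in H1, H5 and H9. These groups did not overlap either, but Gsdma did not pass the edgeR test (log2 fold change -0.68 ± 0.31 SE, adjusted p = 0.107), and reads common to Gsdma and Gsdma2 could be divided between them.

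Gsdme, listed in the table by its older symbol Dfna5 and known as a pore former, was at 21.4, 9.02 and 27.0 CPM in C1, C3 and C3-3 and at 7.90, 8.58 and 21 CPM in H1, H5 and H9. The groups overlapped, with C3 near H1 and H5 and with H9 near C1 (log2 fold change -0.61 ± 0.52 SE, edgeR adjusted p = 0.382). Pjvk, listed as Dfnb59 and known for its role in hearing, had no count in controls and 0.054, 0 and 0.163 CPM in H1, H5 and H9, too few to be tested.

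The machinery around the gasdermins was described from 10 gene lists, of which 74 genes were tested. In all, 8 rose (10.8%) and 11 fell (14.9%), near the 12.4% and 12.7% over all tested genes, against which the counts of each list are to be read. Among the sensors and their adaptor, 1 of 12 tested genes rose and 3 fell, with a median log2 fold change of -0.15 against -0.01 over all tested genes. Nlrp6, a sensor of the gut epithelium, was at 370 to 397 CPM in controls and 165 to 186 CPM in deleted mice, and fell (log2 fold change -1.13, edgeR adjusted p = 0.000259). Scaled by library totals alone, Nlrp6 was at -0.94, within the p limit but under 2-fold. Nlrp9b, a sensor known from rotavirus infection of IEC, fell from 12.1 to 28.6 CPM in controls to between 5.92 and 8.5 CPM (-1.43, edgeR adjusted p = 0.00594). Nek7, a partner of Nlrp3, fell from between 5.33 and 6.43 CPM to between 0.632 and 0.797 CPM (-3.07, edgeR adjusted p = 5.29e-05).

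Mefv, which encodes the sensor pyrin, rose (log2 fold change 2.75, edgeR adjusted p = 0.0116), but its highest value in any mouse was 0.374 CPM, and the call was lost without H9 (2.25, edgeR adjusted p = 0.0571). Nlrc4, the sensor platform for bacterial flagellin and secretion systems, had groups that overlapped and a log2 fold change of -0.03 ± 0.15 SE, and Pycard, the adaptor that joins sensors to Casp1, of 0.22 ± 0.15 SE (edgeR adjusted p = 0.886 and 0.262).

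Among the proteases that cut gasdermins, Casp1, which cuts Gsdmd, was at 112 to 121 CPM in controls and 69.6 to 77.8 CPM in deleted mice. Like Gsdmd it passed the p limit and missed the 2-fold limit (log2 fold change -0.66 ± 0.12 SE, edgeR adjusted p = 0.00271).

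Casp4, the sensor protease of cytosolic lipopolysaccharide, ran from 13.9 to 18.2 CPM in controls and from 12.0 to 24.4 CPM in deleted mice (log2 fold change 0.23 ± 0.25 SE, edgeR adjusted p = 0.508). Casp8, which can cut both Gsdmd and Gsdmc, was higher in every deleted mouse (89.1 to 107 CPM) than in any control (70.3 to 80.2 CPM), yet did not pass the test (0.34 ± 0.13 SE, edgeR adjusted p = 0.0706).

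Of the released cytokines and membrane rupture genes, 2 of 5 tested rose and none fell. Il33, an alarmin, was at 9.3, 16.9 and 20.2 CPM in C1, C3 and C3-3 and at 63.1, 57.3 and 49.5 CPM in H1, H5 and H9, all deleted mice being above all controls (log2 fold change 1.87 ± 0.27 SE, edgeR adjusted p = 0.000838). Ninj1, whose product ruptures the plasma membrane after pores have formed, rose from between 10.5 and 11.2 CPM to between 27.1 and 37.5 CPM (1.5 ± 0.17 SE, edgeR adjusted p = 0.000217). Il18, the Casp1-processed cytokine made by IEC, was at 46.7 to 52.6 CPM in controls and 57.0 to 76.2 CPM in deleted mice without passing the test (0.39 ± 0.15 SE, edgeR adjusted p = 0.0563). Il1b did not exceed 0.358 CPM in any mouse (0.65 ± 0.67 SE, edgeR adjusted p = 0.468).

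**Figure D4:**
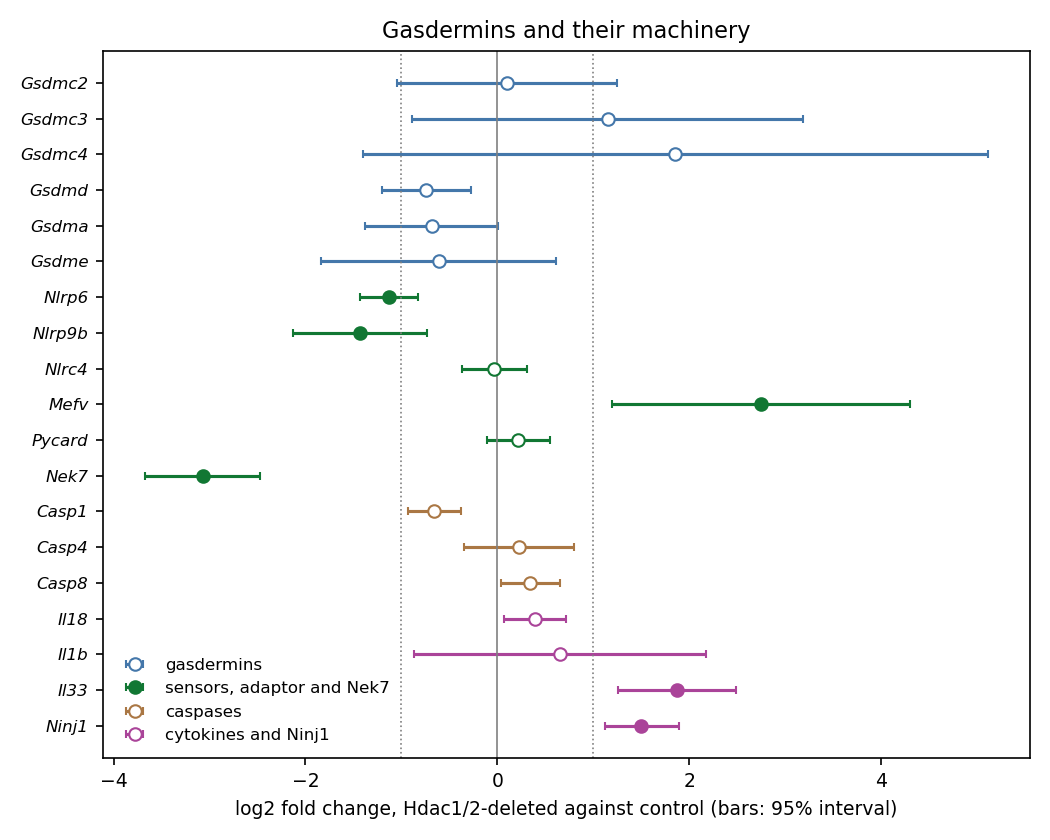
Log2 fold changes (x axis, Hdac1/2-deleted against control, 3 mice each) with 95% intervals from the edgeR fit for gasdermins, inflammasome sensors with the adaptor and Nek7, caspases, and cytokines with Ninj1. Filled points passed both limits of a call (dotted lines mark 2-fold, at -1 and 1), and the gasdermins shown are open, with Gsdmd at -0.74 and Gsdmc4 at 1.85. Gsdma2, with no counts in deleted mice, is left out.

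On the receiving side, 2 of 6 tested receptors and decoys rose and 1 fell. Il1rn, the secreted antagonist of the interleukin-1 receptor, rose from between 0.257 and 0.395 CPM to between 3.39 and 6.55 CPM (log2 fold change 3.87, edgeR adjusted p = 0.000104). Il18rap, an Il18 receptor subunit, rose at low level (2.03, edgeR adjusted p = 0.0211), and Il1rap, a shared receptor subunit, fell (-1.14, edgeR adjusted p = 0.0174). The Il18rap call was lost without C1, C3-3 or H9 and the Il1rap call without C3, H5 or H9 and when scaled by library totals.

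Of 10 tested ESCRT genes, which encode proteins that shed damaged membrane, 1 fell and none rose. Chmp4c was at 190 to 245 CPM in controls and 67.8 to 110 CPM in deleted mice (-1.23, edgeR adjusted p = 0.00157). Chmp2a (-0.85), Chmp2b (-0.91), Chmp3 (-0.48) and Chmp5 (-0.47) were lower at the p limit only, with edgeR adjusted p from 0.00134 to 0.0389. Of all tested genes, 20.3% were lower at that limit. Chmp1a, Chmp4b, Chmp6, Vps4a and Vps4b did not pass it. Of 3 palmitoyltransferases, enzymes that attach a lipid to gasdermins, Zdhhc9 rose (1.41, edgeR adjusted p = 0.000333). Of 10 tested GTPases of lipopolysaccharide sensing, Gbp2b rose (1.21, edgeR adjusted p = 0.0363), and 1 of 2 identifiers listed as Gbp6 fell (-2.46, edgeR adjusted p = 0.0444). Gbp genes are close relatives whose reads may be divided between them, and the Gbp6 groups overlapped. The Gbp6 call was lost in 5 of 11 alternatives, with a log2 fold change of -1.31 without C3 (edgeR adjusted p = 0.192), and the Gbp2b call in 4 of 12, with 0.89 without C3-3 (edgeR adjusted p = 0.0802).

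Because Gsdmc genes are known for type 2 responses, that list was read beside them. Of its 12 tested genes 2 rose and 3 fell, with a median log2 fold change of -0.91. The receptor subunit gene Il4ra was at 49.7 to 64.4 CPM in controls and 107 to 154 CPM in deleted mice, and rose (1.21, edgeR adjusted p = 0.000713), as did Il33. Il13ra1, its partner for sensing of interleukin-13, passed only the p limit and was lower (-0.90, edgeR adjusted p = 0.000966). Stat6, the factor downstream of that receptor, also passed only the p limit and was higher (0.65, edgeR adjusted p = 0.0045). H5, the mouse low in the Gsdmc paralogs, was at 136 CPM for Il4ra and 64.8 CPM for Il13ra1, between H1 and H9 in both, and at 249 CPM for Stat6, below both but above every control.

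The 3 genes that fell were Dclk1 (-4.40, edgeR adjusted p = 8.03e-05) and Pou2f3 (-1.55, edgeR adjusted p = 0.00796), both listed as tuft cell markers, and Sprr2a2 (-2.62, edgeR adjusted p = 0.0294), a cornified envelope gene whose close copies may share reads and whose call was lost without C3 (-1.5, adjusted p = 0.12 in edgeR), H1 or H5. Of the 6 tested tuft cell markers, 3 fell and 1, Trpm5, rose (1.38, edgeR adjusted p = 0.00883). Sums of the tuft cell list overlapped between controls (19.9 to 40.5 CPM) and deleted mice (29.6 to 36.1 CPM). Most of the sum in deleted mice was Trpm5, at 22.4, 23.5 and 28.7 CPM in H1, H5 and H9. In C1, C3 and C3-3 Trpm5 was at 5.33, 14.1 and 9.18 CPM, so the overlap of the sums does not describe the markers that fell. None of the 8 transcription factors of gasdermin and inflammasome genes was called. Irf1 (-0.81, edgeR adjusted p = 0.0152) and Nfkb1 (-0.44, edgeR adjusted p = 0.0234) were lower at the p limit only, and Stat6, given above, was higher. Irf1 was at 202 to 273 CPM in controls and 95.2 to 162 CPM in deleted mice. Irf2, known to drive Gsdmd transcription, was at 87.2 to 104 CPM in controls and 72.0 to 83.1 CPM in deleted mice, a difference that did not pass the test (-0.31 ± 0.13 SE, edgeR adjusted p = 0.0891).

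The 3 genes of the count table nearest to each locus on each side were read as well, at whatever distance. Around the Gsdmc cluster, Adcy8, 785 kb away, rose (log2 fold change 1.15, edgeR adjusted p = 0.0138). Fam49b at 16.8 kb (-0.24), Asap1 at 175 kb (0.80), Tsg101-ps at 843 kb (-0.70) and Myc at 1830 kb (0.63) were not called. Their edgeR adjusted p ran from 0.0788 to 0.405, and Pvt1, at 1450 kb, was not tested. Beside Gsdmd, Naprt was at 304, 443 and 375 CPM in C1, C3 and C3-3 and at 90.5, 109 and 118 CPM in H1, H5 and H9. The order of the controls was that of Gsdmd, and Naprt fell (-1.82, edgeR adjusted p = 0.000118). Mroh6, which lies between Gsdmd and Naprt at 16.7 kb from Gsdmd, also fell (-2.83, edgeR adjusted p = 0.00273). Eef1d on the same side was higher at the p limit only (0.95, edgeR adjusted p = 0.00245), Zc3h3 on the other side was not called (0.30, edgeR adjusted p = 0.215), and Mafa and Gm9568 were not tested.

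For each member, the 3 tested genes most like it were those with the smallest root mean square difference in centred log2 CPM over the 6 mice. For Gsdmd these were Trpm4 (0.0604), Wwox (0.0688) and 2010001E11Rik (0.071). For Gsdmc2 they were Pygm (0.154), 4930534D22Rik (0.163) and Ccdc142 (0.176), and for Gsdmc3 they were Slc20a1 (0.283), 4930522L14Rik (0.478) and Gm8810 (0.492). For Gsdmc4 no gene came closer than Gm8810 (0.83), followed by Crtam (1.11) and Gm5540 (1.16). Slc20a1, a phosphate transporter gene, was at 18.4, 12.4 and 73.5 CPM in C1, C3 and C3-3 and at 89.1, 16.7 and 63.2 CPM in H1, H5 and H9, so that C3-3, H1 and H9 were high and C1, C3 and H5 low.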

How the data were processed

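IEC were enriched from mouse jejunum with EDTA, and the authors sequenced poly(A) RNA of 3 controls and 3 Hdac1/2-deleted animals as stranded libraries, after selection on RNA integrity. The submitters' processing notes name STAR 2.4.0f1 and mm9, whereas the methods name GRCm38, and the counting tool is not given in the sources used here. The authors deposited raw counts per gene for each mouse, which were used, and size-scaled values rounded to whole numbers (read here as a score), which were not. The table also holds the authors' own comparison columns (fold changes, mean log CPM and p-values), which were not used.

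Each mouse was taken as 1 replicate, so p-values of the edgeR test weigh the group difference against the spread between mice. That spread was estimated with information shared across genes. Counts were fitted over the whole table with the robust quasi-likelihood test of edgeR 4.0.16 in R 4.3.3, with TMM normalization, filterByExpr and Benjamini-Hochberg adjustment over all 15618 genes tested. CPM were computed from TMM-scaled library sizes. The deposited table held no gene with fewer than 10 counts over all mice. SE and 95% intervals of log2 fold changes came from the same fit. Simulated data, with the same low spread between mice set for every gene, tested its calls and fold changes only. They did not test the SE, the intervals or genes that vary as widely as Gsdmc4. Shares were compared with an exact permutation test. Depth differed, H5 being the shallowest, and floors of 3 counts cover counting error only.

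Alternatives were RLE size factors, library totals, DESeq2 1.42.0, no filter, a filter of 1 CPM in 3 mice, no robust estimation, and each mouse left out. Sequences and positions came from GENCODE M21 (GRCm38), and identity from pairwise alignments in Biopython 1.88. The named genes were the gasdermins, the called members of each list with a set of central genes, 3 neighbours on each side, and the 3 most alike genes. Some genes of the lists are counted but not reported here by name. The members and lists were chosen with earlier results of these data known.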

Additional observations from a re-analysis of the deposited data

How the results depend on the processing

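Scaling by library totals alone moved the median log2 fold change of all tested genes from -0.01 to 0.18, and Gsdmd with it to -0.53 (edgeR adjusted p = 0.0357). Under RLE size factors, library totals, DESeq2, no filter, a filter of 1 CPM in 3 mice and no robust estimation, Gsdmc2, Gsdmc4, Gsdmd and the summed paralogs kept their direction and their side of the p limit, as did Gsdmc3, which the filter of 1 CPM removed. The 4 members differed when single mice were left out. The log2 fold change of Gsdmc2 then ran from -0.17 to 0.48 and was negative without C3 (-0.15), H1 (-0.17) or H9 (-0.10). That of Gsdmc3 ran from 0.68 to 2.67, of Gsdmc4 from 1.4 to 2.73, and of the summed paralogs from 0.92 to 1.98. Gsdmc4 and the sum passed the test without H5. Gsdmd ran from -0.91 to -0.53 and no longer passed without C3, C3-3 or H5. The difference in the Gsdmc4 share ran from -0.0536 to 30.4 percentage points, the negative value being without C1. The list genes called higher ran from 5 (without H9) to 9, against 8, and those called lower from 9 to 15, against 11. The causes were not tested beyond the removal of each mouse. The tested other gasdermins and the called genes of the machinery lists, 21 in all, were also followed under the alternatives. Of these 21, Gbp2b, Gbp6, Il18rap, Il1rap, Mefv and Sprr2a2 went past the p limit under at least 1 alternative, 20 times in all. Nlrp6 kept the p limit but lost its call by library totals alone, being under 2-fold (-0.94), and none of the 21 changed direction. Results under the alternatives are not given for the remaining named genes, such as Casp1, Nlrc4, Irf2, Stat6 and Naprt. Results for Gsdmc were not run, since Gsdmc had no row in the table used here, and the sum and the shares leave it out. No paired analysis was run, because the sample labels give no pairing of mice between the groups. C1 and H1 carry the same number, but its meaning is not given. With 3 mice a group, the intervals of Gsdmc3 and Gsdmc4 span both directions, and Gsdmc3 rests on 2 to 35 counts a mouse.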

Other observations

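The T cell granzyme genes Gzma and Gzmb, whose proteases can cut gasdermins, varied between mice more than Casp1 did. Gzma was at 57.0, 235 and 206 CPM in C1, C3 and C3-3 and at 21.9, 71.9 and 47.2 CPM in H1, H5 and H9, and Gzmb at 16.5, 70.6 and 62.0 CPM and at 6.75, 27.5 and 7.46 CPM. In both, C3 and C3-3 were high, and C1 lay within the range of the deleted mice. The log2 fold changes of -1.82 ± 0.67 SE and -1.85 ± 0.80 SE did not pass the edgeR test (Benjamini-Hochberg adjusted p = 0.0783 and 0.123).

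Among the sensors not described above, Naip6 was at 34.1, 27.4 and 69.0 CPM in C1, C3 and C3-3 and at 95, 56.9 and 121 CPM in H1, H5 and H9, so that H5 lay among the controls (log2 fold change 1.06 ± 0.41 SE, edgeR adjusted p = 0.0797). Aim2, a sensor of cytosolic DNA, was higher in every deleted mouse and passed the p limit only (0.89 ± 0.23 SE, edgeR adjusted p = 0.0122). Nlrp1b was at 11.1, 12.9 and 4.54 CPM in controls and at 1.65, 1.84 and 0.0488 CPM in H1, H5 and H9, with no overlap and without passing the test (-3.03 ± 1.03 SE, edgeR adjusted p = 0.0579). These genes were picked after their values had been seen, and Naip and Nlrp1 genes have close relatives whose reads may be divided between them.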
